A study of Mus musculus with 9 samples.

Results

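At 6 h of TNF treatment, 740 sites inside protein-coding genes and away from their starts carried a peak in both RelA and both RelB libraries. They are 39.8% of the 1860 sites that had a peak in all 4 libraries (Wilson 95% interval 37.6 to 42.0%), beside 897 intergenic and 223 promoter sites. Overlapping peaks of the 4 lists were merged, also through chains of overlap. The 4 lists shared a base at 551 of the 740 sites. At a site, the strongest windows of the 4 libraries spanned a median of 101 bp and at most 1473 bp. Sites were called gene-body when their centre lay over 1 kb from every protein-coding gene start and within a protein-coding gene of the mm9 annotation. The members were therefore chosen on the measured peak calls at 6 h, and their strengths at 6 h are given as a description of sites that had already passed in every library. The cells were Nfkb2-/- MEFs, mouse embryonic fibroblasts immortalised by serial passage, and every library shared the loss of Nfkb2, so no library of wild-type cells enters the values. Cells were taken before treatment (0 h) or after 6 h in 10 ng/ml TNF, and the bound chromatin was recovered with RelA or with RelB antibodies. There were 2 libraries for each antibody and time, 8 in all, and peaks had been called in each library against input chromatin of the same genotype. Nothing in the labels says that the 2 libraries of a group came from separate cultures, so the p-values measure the spread between these libraries, which may be technical.

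RelA and RelB are, with cRel, the NF-κB subunits that can activate transcription. RelA is a main subunit of the canonical pathway and RelB of the non-canonical pathway. Both bind κB sites as heterodimers, with p50 among their partners. Nfkb2 encodes p100, which holds RelB in the cytoplasm and is processed to p52, so RelB can pair with p50 but not with p52 in these cells. Many κB sites lie far from promoters, in introns and between genes, where they can act as enhancers of the surrounding gene or of a neighbour.

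The sequence under a few of these sites is shown because their folds or their RelA and RelB values carry the results that follow. Each line gives the mm9 plus strand, 5′ to 3′, around the match to the κB consensus closest to the centre of the site, with the match in capitals. The consensus searched starts with GG and a purine, has any 3 bases next, and ends with 2 pyrimidines and CC. The Stx8 and Sod2 matches read as the consensus on the minus strand.
Stx8 intron 6 (strongest site), chr11:67905701-67905750: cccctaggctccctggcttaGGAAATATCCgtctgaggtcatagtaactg
Traf2 intron 4 (RelB peak already at 0 h), chr2:25389869-25389918: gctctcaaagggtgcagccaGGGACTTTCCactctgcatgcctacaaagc
Il34 intron 1 (RelB peak at 0 h in 1 library), chr8:113318549-113318598: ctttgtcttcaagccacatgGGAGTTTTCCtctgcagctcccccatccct
Atg7 intron 17 (strongest of 4 sites in 1 gene), chr6:114683332-114683381: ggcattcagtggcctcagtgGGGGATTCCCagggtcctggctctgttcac
Nfkbie intron 1 (IκBε), chr17:45694740-45694789: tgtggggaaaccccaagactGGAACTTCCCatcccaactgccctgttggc
Bcl3 intron 2 (nuclear IκB protein), chr7:20402959-20403008: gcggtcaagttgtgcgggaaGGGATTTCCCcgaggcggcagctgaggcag
Nfkb1 intron 1 (p105 and p50), chr3:135333714-135333763: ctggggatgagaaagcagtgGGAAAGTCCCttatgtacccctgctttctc
Tnfaip3 intron 2 (A20), chr10:18729217-18729266: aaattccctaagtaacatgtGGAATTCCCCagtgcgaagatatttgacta
Sod2 intron 2 (higher for RelA), chr17:13203154-13203203: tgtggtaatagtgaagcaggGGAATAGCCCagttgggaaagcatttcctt
Cd82 intron 1 (higher for RelB), chr2:93299006-93299055: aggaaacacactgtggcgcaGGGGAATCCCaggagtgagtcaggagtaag

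The lists of 6 h held 5192 to 7052 peaks per library and 120352 to 162105 ChIP reads in peaks. Total reads are not given in the lists, so the sequencing depth is unknown. At the 740 gene-body sites the median peak held 29 to 35 ChIP reads per library, and the shallowest peak in any library held 10. The FDR that the authors' peak caller gave was under 0.01 in all 4 libraries at 509 of the 740 sites (68.8%).

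Most of the gene-body sites lay in introns, and they were spread along their genes. An intron held the centre of 709 sites (95.8%, Wilson 95% interval 94.1 to 97.0%), an untranslated exon 21, a coding exon 9 and another exon 1. Exons therefore held 4.19% of the sites (interval 2.97 to 5.88%), beside 6.00% of the gene-body bases that lie over 1 kb from a start. Intron 1 held 240 of the 709 intronic sites (33.9%, interval 30.5 to 37.4%), beside 27.0% of all intron bases in the longest transcripts of protein-coding genes. The shares in the successive 4 equal parts of the host gene were 23.5%, 28.4%, 24.7% and 23.4%. The median site lay 43.5 kb from the start of its host gene, and the farthest lay 2.99 Mb from it. Such distances follow the annotated gene models, of which Gm20388 spans 4434882 bp and Fgfr2 3009069 bp. From the nearest protein-coding start of any gene the median distance was 33.9 kb and the largest 899 kb.

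Gene-body sites numbered 0.764 per megabase of gene body, against 0.579 per megabase for intergenic sites and 5.28 for promoter sites. Within gene bodies the density was 1.06 per megabase at 1 to 5 kb from the nearest protein-coding start, 0.807 at 5 to 20 kb, 0.800 at 20 to 50 kb, 0.883 at 50 to 100 kb and 0.539 beyond 100 kb. Thus the zone closest to the starts held the densest sites and the most remote zone the sparsest, and the 3 zones between them were similar. Median strength did not follow the same order, and was 3.08, 3.25, 3.22, 3.13 and 3.19 on the log2 scale in these zones.

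**Figure D1:**
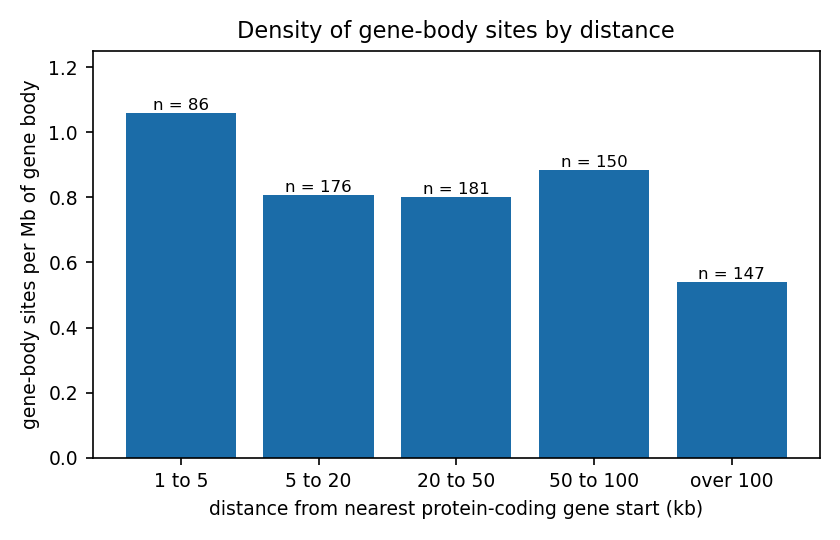
Number of gene-body sites per megabase of gene body (y axis) in zones of distance from the nearest protein-coding gene start (x axis, kb), with the number of sites above each bar. The bar at 1 to 5 kb reaches 1.06 and the bar beyond 100 kb 0.539.

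The host gene was not always the nearest gene. The closest protein-coding start belonged to a host gene at 502 sites (67.8%) and to another gene at 238 (32.2%). A site 2585 bp from the start of Ccl2, which encodes a monocyte-attracting chemokine, was counted as gene-body because it lies in the gene model Gm17268. Its log2 folds were 4.36 and 4.51 in the RelA and 3.50 and 3.40 in the RelB libraries. The RelA values lay above the RelB values. Differences tested with limma, here and below, were taken after each library was centred on its median over all sites. The centred difference of 1.07 did not pass the test (limma, Benjamini-Hochberg adjusted p = 0.0865). It did pass when only sites with an FDR under 0.01 in all 4 lists were tested. Both sites in Gng7 were closest to the start of Gadd45b, a stress-response gene, at 31356 and 37432 bp. A site in Tnfrsf8 lay 30244 bp from the start of Tnfrsf1b, which encodes the second TNF receptor, with log2 folds of 3.91, 3.58, 3.58 and 3.81 in RelA replicates 1 and 2 and RelB replicates 1 and 2. These sites, whose nearest start is that of a listed gene, were singled out after their values were seen.

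The sites fell in 643 of 22380 protein-coding genes (2.87%). Of these host genes 557 had 1 site, 72 had 2 and 14 had 3 or more. A promoter site with a peak in all 4 lists was present in 16 of the 643 host genes (2.49%), and in 1.05% of all protein-coding genes. Of the 235 genes with such a promoter site, 6.81% were hosts. Host genes were long, with a median length of 98.4 kb against 15.4 kb for all protein-coding genes, so a longer gene offers more sequence in which a site can be counted.

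Among these 16 genes the gene-body sites were stronger than the promoter site in 10 and weaker in 6, by mean log2 fold. In Robo1, a receptor in axon guidance, the intronic site 333130 bp from the start had a mean log2 fold of 4.58 and the promoter site 2.76. In Tnfaip3 the order was opposite, with 3.19 inside the gene and 4.42 at the promoter. In Nfkb1 both were equal to the second decimal, 3.41 and 3.41, as in Nuak1, 3.26 and 3.26, although both genes count among the 10. Tnip1, also among the 10, had 3.40 inside the gene and 3.37 at the promoter. Nfkbie, among the 6, had 4.40 and 4.43. The split thus rests in part on very small differences. Bbc3, which encodes a pro-apoptotic protein of the Bcl-2 family, had 4.06 inside the gene and 3.33 at the promoter. These genes were picked out after their values were seen.

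The strength of the gene-body sites lay close to that of the other sites. Sites of every class had passed the same peak calls in all 4 lists, so part of this closeness may come from that selection. Their median log2 fold over input was 3.21 and 3.17 in RelA replicates 1 and 2, and 3.24 and 3.30 in RelB replicates 1 and 2, which corresponds to linear folds of 9.00 to 9.85. Promoter sites had medians of 3.23, 3.17, 3.19 and 3.22 in the same libraries, and intergenic sites 3.21, 3.09, 3.26 and 3.30. The gene-body median minus the promoter median was 0.03 ± 0.05 (SD, n = 4 libraries; exact sign-flip permutation test, two-sided, p = 0.500). The gene-body median minus the intergenic median was 0.02 ± 0.04 (SD, n = 4 libraries; exact sign-flip permutation test, two-sided, p = 1.00). In 4 libraries, 2 of the 16 sign patterns are always as extreme as the one observed, so neither comparison could pass 0.05, and the direction of both differences changed with single libraries or with reads in place of folds. RelA medians at gene-body sites minus RelB medians came to -0.08 (exact permutation test over 2 libraries against 2, two-sided, p = 0.333, which is the lowest this design can give).

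**Figure D2:**
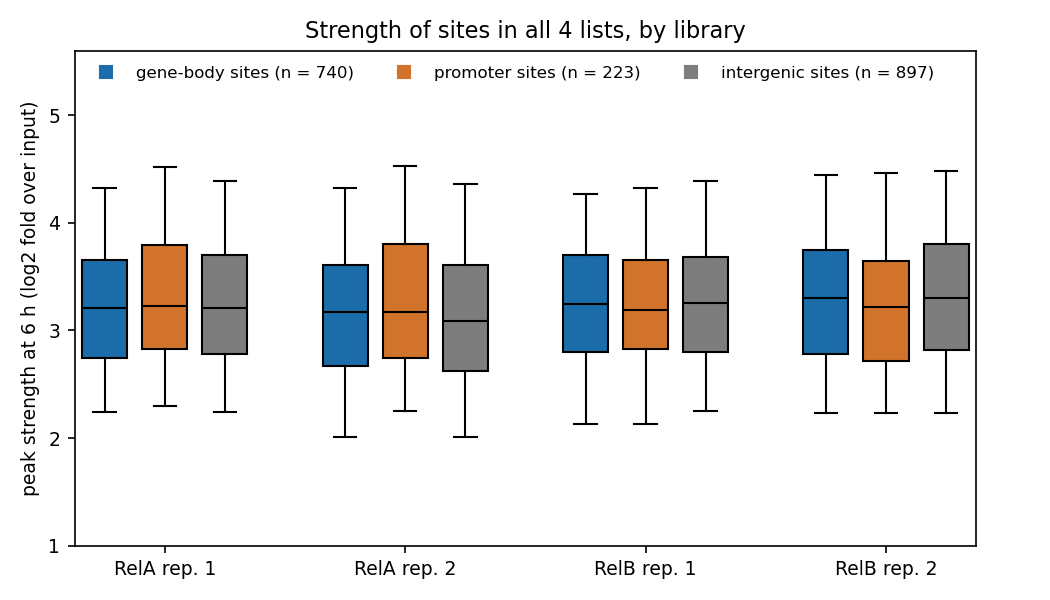
Log2 fold over input of the peak at each site (y axis) in the 4 libraries of 6 h (x axis) for gene-body, promoter and intergenic sites. Boxes span the quartiles, the line is the median and whiskers reach the 5th and 95th percentiles; the 3 boxes of each library overlap almost wholly, with medians between 3.09 and 3.30.

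Within the class, strength ranged widely. Mean log2 folds over the 4 libraries ran from 1.69 to 5.61, with a median of 3.19, and exceeded 4 at 73 sites (9.86%, against 11.1% of all 1860 sites). Replicates of an antibody ranked the sites alike, with Spearman's rho of 0.746 between the RelA libraries and 0.773 between the RelB libraries over 740 sites, and 0.665 between the antibody means. These correlations are across sites of the same libraries, which share their input, and are given as a description. The SD over sites of the difference between replicates was 0.456 for RelA and 0.446 for RelB, and between libraries of different antibodies it was 0.574 to 0.594.

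The strongest gene-body site lay in intron 6 of Stx8, whose product is an endosomal SNARE protein. Its log2 folds were 5.53 and 5.80 in the RelA and 5.50 and 5.61 in the RelB libraries, with 142 to 169 ChIP reads in the peaks. All 4 values lay close together, and the 201-bp window at its centre held 5 κB matches, with overlapping matches counted separately. Next came intron 4 of Traf2, an adaptor of the TNF receptors, with 5.02 and 4.57 in the RelA and 5.41 and 5.42 in the RelB libraries. The RelB values were the higher pair there, but the centred difference of -0.54 did not pass the test (limma, Benjamini-Hochberg adjusted p = 0.358).

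The other 8 of the 10 strongest sites had mean log2 folds of 4.66 to 4.95 and were also intronic. Among them were sites in 5330437I02Rik, in Atg7 (the E1-like enzyme of autophagy), in Amotl1 (an angiomotin family member), in Nfic (a nuclear factor I protein), in Hrh1 (the histamine H1 receptor), in Dlgap4 and in 9530008L14Rik. The Amotl1 site was the closest to a start, 1476 bp away. Nfic had no κB match in its window, with log2 folds of 4.58 and 4.81 in the RelA and 4.75 and 5.04 in the RelB libraries. At the other end, the 3 weakest sites lay in introns of Nlgn1, Dcaf5 and Il34 and had mean log2 folds of 1.69, 1.94 and 2.00.

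Several components of the NF-κB system itself carried gene-body sites. Of 128 genes in 11 lists of NF-κB components, TNF signalling genes, cytokines, adhesion and matrix genes, transcription factors, survival genes, oxidative defence genes and fibroblast markers, 18 held at least 1 (14.1%, against 2.87% of all protein-coding genes). The lists were drawn up with earlier results of these data known, so this share is a description. No gene of the survival list (0 of 8) or of the fibroblast marker list (0 of 10) was a host.

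Among the 5 subunits only Nfkb1, which encodes p105 and p50, was a host. Its site in intron 1 lay 20698 bp from the start and gave log2 values of 3.68 and 3.17 in the RelA and 3.42 and 3.37 in the RelB libraries. The 2 antibodies overlapped there. Promoter sites were present for all 5 subunit genes, Nfkb2 included.

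Of the 6 IκB genes 2 were hosts. Nfkbie encodes IκBε, a cytoplasmic inhibitor, and its intron 1 site had 4.17 and 4.32 in the RelA and 4.25 and 4.86 in the RelB libraries. Bcl3 encodes a nuclear IκB protein that binds p50 and p52, and its intron 2 site had 4.70 and 4.58 in the RelA and 4.17 and 4.09 in the RelB libraries. The RelA pair was the higher at Bcl3, by 0.60 after centring, which did not pass the test (limma, Benjamini-Hochberg adjusted p = 0.291). Both sites were well above the median of the class.

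Of 8 genes of the ubiquitin feedback Tnfaip3 and Tnip1 were hosts. Tnfaip3 encodes A20, an inhibitor of TNF signalling, and its intron 2 site had 3.46 and 3.28 in the RelA and 3.05 and 2.97 in the RelB libraries. The RelA pair was again the higher, by 0.45 after centring (limma, Benjamini-Hochberg adjusted p = 0.422). Tnip1 encodes an A20-binding protein and had 2 sites, with mean log2 folds of 3.10 in intron 1, 1124 bp from the start, and 3.69 in an untranslated exon, 6879 bp from it.

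Among 20 genes of TNF receptor signalling the hosts were the adaptors Traf1 and Traf2. The Traf1 site had 3.61 and 2.49 in the RelA and 2.97 and 2.90 in the RelB libraries, so the RelA replicates lay on both sides of the RelB values. Of 19 chemokine and cytokine genes Cx3cl1 and Tslp were hosts. Cx3cl1 encodes a membrane-bound chemokine, and its intron 2 site had 4.21 and 3.82 in the RelA and 4.19 and 4.22 in the RelB libraries. The Tslp site, in a gene for an epithelial cytokine, had 3.10 and 3.49 in the RelA and 1.92 and 2.65 in the RelB libraries. Its centred difference of 1.10 did not pass the test (limma, Benjamini-Hochberg adjusted p = 0.123).

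Adhesion and matrix genes gave 4 hosts of 20. The intron 2 site of Icam1, a leukocyte adhesion molecule, had 3.80 and 3.68 in the RelA and 3.65 and 3.43 in the RelB libraries. Lamc1, a laminin chain, had a mean log2 fold of 3.80, Mmp9, a secreted gelatinase, 3.25, and Col5a1, a fibrillar collagen chain, 2.52. The Col5a1 values were the most scattered of these 4, with 2.48 and 1.78 in the RelA and 3.57 and 2.24 in the RelB libraries.

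Transcription factor genes outside the NF-κB family gave 4 hosts, 2 of 12 on the AP-1 and ATF list and 2 of 12 on the IRF and STAT list. Fosl2, which encodes Fra-2, had 3.57 and 3.53 in the RelA and 3.48 and 3.21 in the RelB libraries. Batf, a bZIP partner of Jun proteins, had a mean log2 fold of 3.86. The Irf8 site, in an untranslated exon, was among the weaker ones with a mean log2 fold of 2.43.

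**Figure D3:**
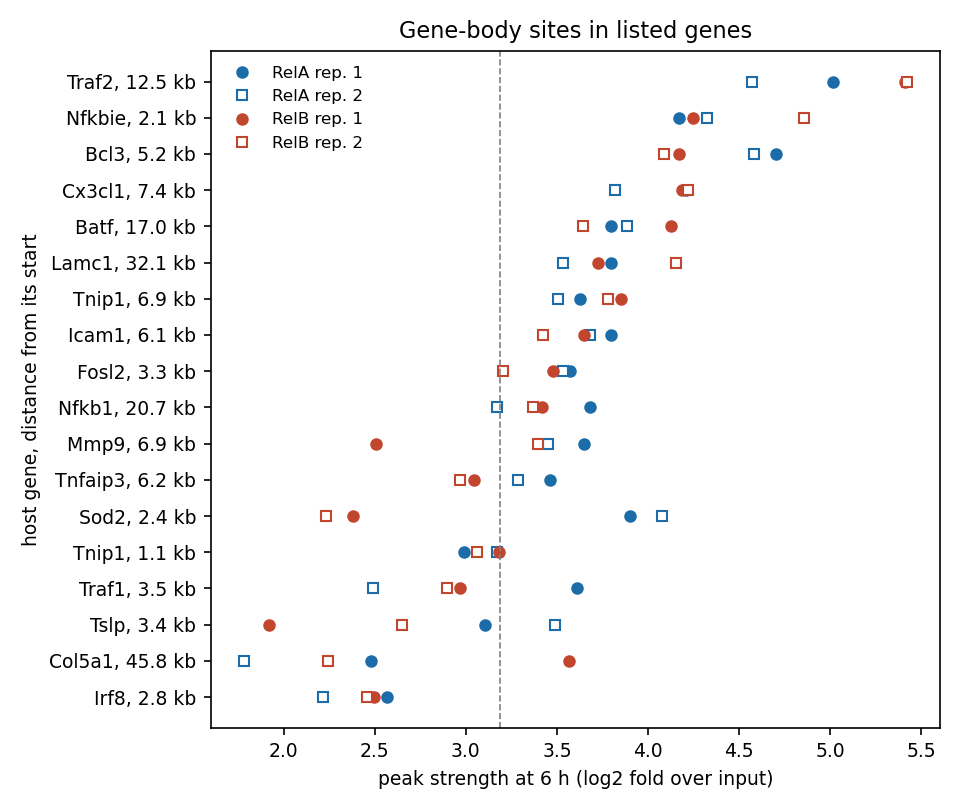
Log2 fold over input at 6 h (x axis) of 18 of the 19 gene-body sites in listed genes (y axis, with the distance from the gene's start), 1 symbol per library; the dashed line is the median of all gene-body sites. Traf2 is at the top, and at Sod2 the RelA symbols (3.90 and 4.08) lie far to the right of the RelB symbols (2.38 and 2.23).

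Some genes held several sites. Gm20388, a gene model of 4.43 Mb that spans other genes, had 6, and for 5 of these it was the only host. Cdkal1, a tRNA-modifying enzyme, and Thsd4, a protein of the extracellular matrix, had 5 each, with mean log2 folds over their sites of 3.08 and 2.98. Atg7 and Exoc4, a subunit of the exocyst, had 4 each, with 3.81 and 2.96. The sites of Cdkal1 were spread over 425085 bp and those of Atg7 over 87511 bp.

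The Atg7 sites differed in strength. The one in intron 17 had 4.72 and 4.81 in the RelA and 4.80 and 5.04 in the RelB libraries, and the remaining 3, in intron 18, had mean log2 folds of 3.81, 3.25 and 3.35. Across the class 168 sites (22.7%) had another site of all 4 lists within 50 kb, and 32 (4.32%) within 5 kb.

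Of 8 motifs searched, the κB consensus was the most frequent at these sites. Within the 201-bp window at the centre, 559 of the 740 sites (75.5%, Wilson 95% interval 72.3 to 78.5%) held at least 1 match, against 13.9% of the 1480 flanking windows of the same length 1000 bp away (interval 12.2 to 15.7%). The share was 78.5% at promoter sites and 71.3% at intergenic sites, and 21.1% of the windows at all protein-coding gene starts held a match. The closest match lay a median of 32.5 bp from the centre. Shares rise with the length of the window, and 48.6% of the sites held a match within 50 bp of the centre.

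The matches took 170 different forms when both strands were read as the same sequence. The 5 most frequent were GGAAAGTCCC at 77 sites, GGAAATCCCC at 65, GGAATTCCCC at 43, GGACTTTCCC at 40 and GGAAATTCCC at 36. At least 1 of these 5 was present at 222 sites (30%), while the same 5 occurred 2 times in all in the 1480 flanking windows. The 5 were picked for their frequency in these same site windows, which widens the contrast with the flanks. The Nfkb1 and Traf2 matches printed above are GGAAAGTCCC read on opposite strands.

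Sites with more κB matches were a little stronger. Overlapping matches were counted separately, so these counts are not numbers of separate κB elements. Median mean log2 folds were 3.09 at the 181 sites with no match, 3.19 at 292 with 1 match, 3.22 at 185 with 2 and 3.38 at 82 with 3 or more. The RelA minus RelB difference had medians of -0.21, -0.18, 0.03 and 0.14 in the same order, before centring. These medians are descriptions of sites that all had a peak in each list, and were not tested.

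Sites of AP-1, the dimers of Fos and Jun proteins, were also more frequent than in the flanks. The motif TGANTCA, read on both strands, was present in the window of 136 sites (18.4%, Wilson 95% interval 15.8 to 21.3%) and in 5.88% of flanking windows (interval 4.79 to 7.19%). Intergenic sites gave 17.8% (interval 15.5 to 20.5%), and its interval overlapped that of the gene-body sites. Promoter sites gave 4.48% (interval 2.45 to 8.06%), beside 4.17% of windows at all protein-coding gene starts. The intervals of the gene-body and promoter sites did not overlap.

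A κB and an AP-1 match stood together at 109 sites (14.7%), with a median distance of 36.5 bp between their centres. Of the 136 sites with an AP-1 match 27 had no κB match, beside 181 of all 740 sites. Both motifs gather at the centre of the windows. Whether they met more often, or closer, than their separate shares and positions give was not tested. In an intron of Dnm3, a dynamin, the matches shared no base but touched. In Bcar1, which encodes the adhesion scaffold p130Cas, and in 9530008L14Rik 2 and 8 bases separated them. They are printed here, both matches in capitals, as the closest pairs among the strongest sites, chosen after the values were seen.
Dnm3, chr1:164023557-164023583: ctgtgGGACTTTCCCTGAATCAcaggc
Bcar1, chr8:114250221-114250249: cagagTGAGTCAcaGGGAAATTCCctcta
9530008L14Rik, chr13:41916486-41916520: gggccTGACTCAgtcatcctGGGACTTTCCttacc
At the Dnm3 site the log2 folds were 4.32 and 4.46 in the RelA and 4.09 and 4.70 in the RelB libraries, and the Bcar1 site 4.91 and 4.46 in the RelA and 4.52 and 4.30 in the RelB libraries. Sites with an AP-1 match had a median mean log2 fold of 3.23 and sites without one 3.18, and the median RelA minus RelB differences were -0.08 and -0.10.

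The hexamer GGAATG, contained in sites of TEAD factors, was in 22.0% of the windows (interval 19.2 to 25.2%) and 10.6% of the flanks. Intergenic sites gave a share of 21.2% for it (interval 18.6 to 24.0%), overlapping that of the gene-body sites, and promoter sites 10.3%. The RUNX hexamer TGTGGT was in 15.8% of the windows and 14.5% of the flanks, with overlapping intervals. CRE (TGACGTCA), C/EBP (TTGCNNCAA) and CCAAT (CCAATNNG) matches were present at 0.676%, 1.76% and 6.35% of the sites, and a repeat of the type in interferon response elements at 3.38%, with 2.16% of the flanks. Base composition separated gene-body from promoter sites as well, with a median GC content of 48.8% against 60.2% and a median CpG observed-to-expected ratio of 0.209 against 0.650. Intergenic sites, at 46.8% and 0.198, were close to the gene-body sites in both. A match describes the letters of these windows and is not a measurement of binding by the named factor, and the part of base composition in the shares was not tested.

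**Figure D4:**
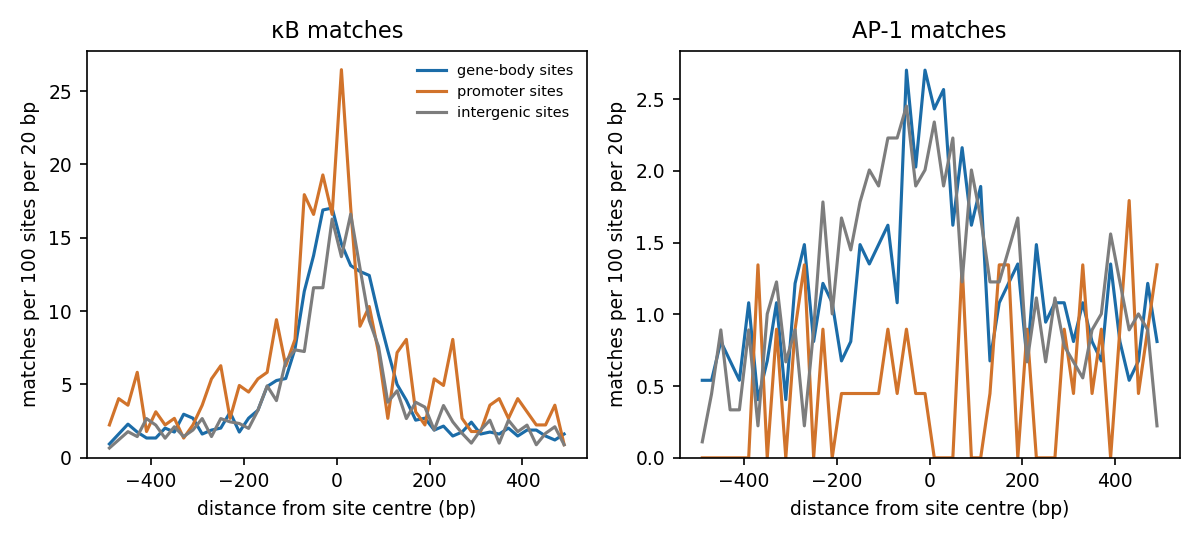
Matches per 100 sites in 20-bp bins (y axis) by distance from the site centre (x axis, bp), for the κB consensus on the left and the AP-1 motif on the right, in gene-body, promoter and intergenic sites. κB matches gather at the centre in each class, while AP-1 matches gather there at gene-body and intergenic sites; the promoter line for AP-1 rests on few matches (10 of 223 windows).

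The difference between RelA and RelB passed the test at few gene-body sites. Only sites with a peak in all 4 lists were tested, so sites called for a single antibody could not enter. The low number of calls and the closeness of the antibodies below therefore hold for these selected sites only. With each library centred on its median, so that differences are relative to the median site, limma called 6 of 740 gene-body sites (0.811%) at an adjusted p under 0.05, and 11 of all 1860 sites (0.591%). The gene-body share was thus close to that of all sites. RelA was the stronger at 4 of the 6 sites (0.541%, against 0.43% of all sites) and RelB at 2 (0.270%, against 0.161%). Unadjusted p-values were under 0.05 at 120 of the 740 sites (16.2%, against 16.8% of all sites). The RelA and RelB libraries did not overlap at 369 sites (49.9%), against 48.7% of all sites, and the antibody difference was within 1 log2 unit of the overall median difference at 95.3% of the gene-body sites, against 95.2% of all.

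The site in intron 2 of Sod2, the mitochondrial superoxide dismutase, had 3.90 and 4.08 in the RelA and 2.38 and 2.23 in the RelB libraries, with 78 and 79 ChIP reads against 12 and 11. The RelA values lay far above the RelB values, and the centred difference was 1.77 with an SE of 0.27 (limma, Benjamini-Hochberg adjusted p = 0.0178). In intron 1 of 4933426M11Rik the values were 3.83 and 3.75 against 2.25 and 1.97. In intron 5 of Ankrd55, an ankyrin repeat gene, they were 4.65 and 4.61 against 3.29 and 2.56, and in intron 13 of Rnf216, an E3 ubiquitin ligase, 3.91 and 3.70 against 2.04 and 2.45. The 3 centred differences were 1.77, 1.79 and 1.64 (limma, Benjamini-Hochberg adjusted p = 0.0178, 0.0310 and 0.0310).

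The 2 sites with the higher RelB signal lay in intron 1 of Extl1 and of Cd82. Extl1, a glycosyltransferase of the exostosin family, had 3.56 and 3.78 for RelB and 1.67 and 1.78 for RelA. Cd82, a tetraspanin, had 3.80 and 3.79 for RelB and 2.09 and 1.78 for RelA. The centred differences were -1.86 and -1.78 (limma, Benjamini-Hochberg adjusted p = 0.0178 for both). In the same direction the next largest difference, at a site in D0H4S114, was -1.39 and did not pass (limma, Benjamini-Hochberg adjusted p = 0.0665). The D0H4S114 site passed under some of the other settings given in the closing section. The Extl1 window held no κB match and the Cd82 window held 1, with 1 AP-1 match.

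These calls depended on both RelB libraries. Without RelB replicate 1 or without RelB replicate 2 limma called 0 gene-body sites and 0 of all 1860, with 74 and 83 gene-body sites at an unadjusted p under 0.05 (10% and 11.2%, against 10.4% and 10.9% of all sites). Without RelA replicate 1 or 2 it called 16 and 18 gene-body sites, the 6 sites above among them. These are 2.16% and 2.43% of the gene-body sites, against 2.15% and 2.1% of all sites. In the weaker antibody the peaks at the 6 sites held 11 to 26 ChIP reads, so the lower value of each pair rests on few reads. At Rnf216 the higher values rest on few reads too, with 25 and 20 ChIP reads for RelA against 13 and 19 for RelB.

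**Figure D5:**
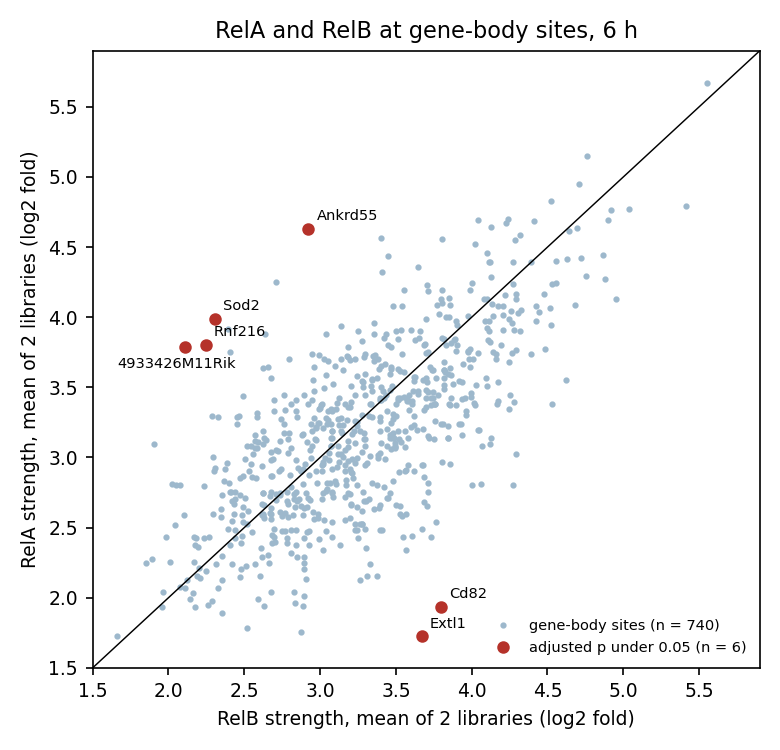
Mean log2 fold of the 2 RelA libraries (y axis) against that of the 2 RelB libraries (x axis) at the 740 gene-body sites, with the line of equality. The 6 sites that passed the test are marked with their host genes, 4 above the line and 2 below it, and the rest form a single cloud along it.

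Before TNF the gene-body sites were nearly without peaks. No site overlapped a RelA peak of 0 h in either library (0 of 740, which allows a share of up to 0.405%, for counting error only), although the 0 h RelA lists had 79 and 81 peaks in gene bodies. The 0 h RelB lists had 14 and 4 peaks in gene bodies, and 2 of the 740 sites overlapped one. The other classes were alike in this, as no promoter or intergenic site overlapped a 0 h RelA peak, and a 0 h RelB peak lay at 1 of 223 promoter and 0 of 897 intergenic sites.

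The Traf2 site had a RelB peak in both libraries of 0 h, with log2 folds of 3.62 and 3.71 and 36 and 29 ChIP reads. At 6 h the RelB values were 5.41 and 5.42, so both lay above both values of 0 h. Of the 3 sites in Il34, a gene for a ligand of the CSF1 receptor, the one 11215 bp from the start had a RelB peak in replicate 2 of 0 h, with a log2 fold of 2.96 and 15 ChIP reads. Its values at 6 h were 4.91 and 4.46 for RelB and 4.0 and 4.17 for RelA. The lists hold only called peaks, so a site without a 0 h peak may have had signal below the threshold.

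At the boundary of the class, members and non-members were as follows. Among the gene-body sites closest to a protein-coding start were those in Fbxl5 and Tnfsf13, 1027 and 1043 bp from the starts of the neighbouring genes Bst1 and Senp3, with mean log2 folds of 2.93 and 2.71. The promoter sites just inside 1 kb lay 980, 980 and 984 bp from the starts of Pdgfra, Micalcl and Rhbdl3, with 3.85, 2.75 and 2.46. Another 482 merged gene-body sites had a peak in exactly 3 of the 4 lists, with a median log2 fold of 2.81 over the lists that had one, and RelA replicate 2 was the list most often without a peak (173 sites). Of the 740 sites, 47 lay within 1 kb of the start of another protein-coding transcript and 13 within 1 kb of the start of a non-coding gene.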

How the data were processed

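The authors used cutadapt for trimming and Bowtie for alignment to mm9, with uniquely placed reads retained. cisGenome then gave 1 peak list per library against Nfkb2-/- input (FDR under 0.1, fold over 2). The deposited FDR is a q-value of the call. The deposited strength is a log2 fold over scaled input in the strongest window, and the deposited count columns hold ChIP and input reads without normalization. The input sample was not analysed on its own.

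Peaks of 6 h that shared at least 1 bp were merged, and the strongest peak per list gave the value of a site. Starts, genes and exons came from GENCODE vM1 on NCBIM37, which is mm9, and all peaks lay within its chromosomes. Motifs were searched within 100 bp of the site centre on both strands, and overlapping matches were counted separately. Antibodies were compared with limma 3.58.1 (R 4.3.3) over 1860 sites, each library centred on its median, with Benjamini-Hochberg adjustment. Class medians were compared by exact permutation over libraries. Merging, motif and limma steps were tested on simulated data. There limma called 51% of planted differences of 1 log2 unit and 100% of those of 2. The simulated sites had a common SD, unlike the real ones, and had not been chosen by peak calls. These shares may therefore not hold for the real sites. A site that did not pass is thus not shown to be equal for both antibodies. Computation used Python 3.11.15, pandas 2.3.3 and pysam 0.24.0. Sites named were the 10 strongest and 3 weakest, those in listed genes, in the 5 genes with most sites, called by limma, with a 0 h peak, or nearest to 1 kb from a start; others are said to be chosen after their values were seen. Some sites that this rule names are not reported here. The members and lists were chosen with earlier results of these data known. Alternatives are given in the closing section.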

Additional observations from a re-analysis of the deposited data

How the results depend on the processing

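Of 81 alternative values for 9 shares, medians and differences, 64 kept the direction or stayed within the error. Counted as kept were a gene-body minus intergenic difference of 0 without RelA replicate 2 and the 8 alternatives of the 0 h RelA share. The number of gene-body sites ran from 508 to 887 against 740, the intronic share from 95.6 to 96.7%, and the 0 h RelA share stayed at 0. The share of sites in gene bodies was 37.3% with the starts of all protein-coding transcripts. With log2 reads in the strongest window in place of folds, the differences between class medians turned to -0.0185 (promoter) and -0.0176 (intergenic), the RelA minus RelB difference to 0.00200, and the median was 4.21, on the scale of reads. Leaving out 1 library moved the gene-body minus promoter difference between -0.0225 and 0.0138, with -0.00964 without RelA replicate 2 and -0.0225 without RelB replicate 1. It moved the gene-body minus intergenic difference between -0.0153 and 0.0186, with -0.0153 without RelA replicate 1. The median log2 fold was 3.40 for peaks with an FDR under 0.01 and 3.31 for peaks with a common base in all 4 lists, where fewer sites enter. The κB share was 78.9% with a common base, 48.6% and 88.4% with windows of 50 and 200 bp on each side and 86.2% in the merged site, and the AP-1 share 10.8%, 27.4% and 27.8% in the last 3. Windows on the strongest position and leaving out Gm20388, both chosen after seeing the data, left their results within the error.

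limma called 6 gene-body sites with no centring (0.43% of all sites were then called), with quantile normalization 6 (0.538% of all), and with an intensity trend and robust prior 12 (1.72% of all). Requiring an FDR under 0.01 in all 4 lists gave 9 of 509 (1.77%, the same share as over all sites tested), and only 1 of the 6 sites was then tested. The sites near Ccl2 and in D0H4S114 were among these 9. The D0H4S114 site was also among the 12 with the trend and robust prior. Leaving out 1 library gave 0 to 18. The lone library left for an antibody was then assumed to vary like the other pair. A replicate block brought the calls to 33, the 6 sites among them (4.46%, against 4.57% of all sites). The labels give no pairing of same-numbered libraries, and the differences between replicates 1 and 2 of RelA and RelB correlated with r = 0.01 over the 740 sites, so the block has no basis in the design. The causes of these changes were not tested unless stated. Total reads are unknown, peaks at the weakest sites held few reads, and with 2 libraries per group the exact permutation tests could not pass 0.05.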
